A study of Mus musculus with 16 samples.

Results

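Antibody genes were examined on mouse arrays of LA-N-1 neuroblastoma xenografts, through the probe sets whose annotated symbol, or any symbol listed with it, begins with Ighv, Igkv, Iglv, Ighg, Igha, Ighm, Igkc or Iglc. Of 40543 probe sets on the array, 34 met this rule. One of them names Ighmbp2, a helicase that shares only the first letters, and it was left out of every count and score below, which leaves 33. Of these, 14 belong to the heavy chain locus on chromosome 12, 17 to the kappa light chain locus on chromosome 6 and 1 (Iglv1) to the lambda light chain locus on chromosome 16. The last lists symbols of both heavy and kappa chains. A single symbol is listed by 28 of the 33, 9 of them for constant regions (7 for Ighm and 2 for Ighg3) and 19 for variable regions, and 5 list several symbols and are called here by their probe set number. No probe set on this annotation was found under the prefixes Igha, Igkc or Iglc. The family was picked from an earlier result of these data, the higher signal of Igkv9-120 in prolonged cinacalcet tumors than in vehicle tumors when 1 prolonged tumor (C10) was left out, so values of that comparison are given without a test of the family.

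LA-N-1 is a human neuroblastoma cell line with amplified MYCN. Its cells were injected under the skin of female athymic Nude-Foxn1 nu/nu mice, 4 to 6 weeks old, and the mice were then randomized to cinacalcet, an oral activator of the calcium-sensing receptor, at 10 mg/kg per day by gavage or to vehicle, until the tumor reached its final volume. The prolonged cinacalcet group is formed by the 3 tumors treated for longest (C9, C10 and C11), the shorter cinacalcet group by C4, C5, C7 and C8, and the vehicle group by 8 tumors (V5 to V12). C6, also treated for a shorter time, was set apart by the study as an outlying array and is shown without entering the groups. Treatment length was not assigned but followed from tumor growth, so it cannot be told apart from time in the host. All groups share the nude host, the cell line and the excision rule, and the arrays hold the last 8 tumors excised of each arm. RNA of each whole tumor, host and human cells together, was measured on the Mouse Gene 2.1 ST array, and no array of human cells alone was analysed here.

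An antibody joins heavy chains to light chains, which are either kappa or lambda. Each B cell assembles one variable segment of each chain by rearranging its DNA, next to constant regions such as Ighm, of IgM, or Ighg3, of the IgG3 class, and only B cells and the plasma cells derived from them make these transcripts in quantity. Athymic mice lack most T cells but have B cells, which secrete mainly IgM and those IgG classes that need little T cell help, IgG3 among them.

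The immunoglobulin score, the mean log2 signal of the 33 probe sets in a tumor, was high in 4 tumors that came from both treatment arms. It was 5.67 in C9, 1.55 in C10 and 4.64 in C11 of the prolonged group. It was 2.40 in C4, 1.76 in C5, 1.62 in C7 and 1.83 in C8 of the shorter group. In vehicle tumors the lowest score was 1.80, the median 2.11 and the highest 4.98, in V12, followed by V9 at 3.79. The prolonged group therefore held both the highest tumor of all 16 (C9) and the lowest (C10), and the vehicle tumor V12 ranked above C11. Below V9 the next score was 2.47 (V5), a gap of 1.32, and C6 stood at 1.77. The groups averaged 3.95 ± 2.14 (SD, n = 3) with prolonged cinacalcet, 1.90 ± 0.34 (SD, n = 4) with shorter cinacalcet and 2.63 ± 1.15 (SD, n = 8) with vehicle, all on the log2 scale. Their ranges overlapped.

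**Figure D1:**
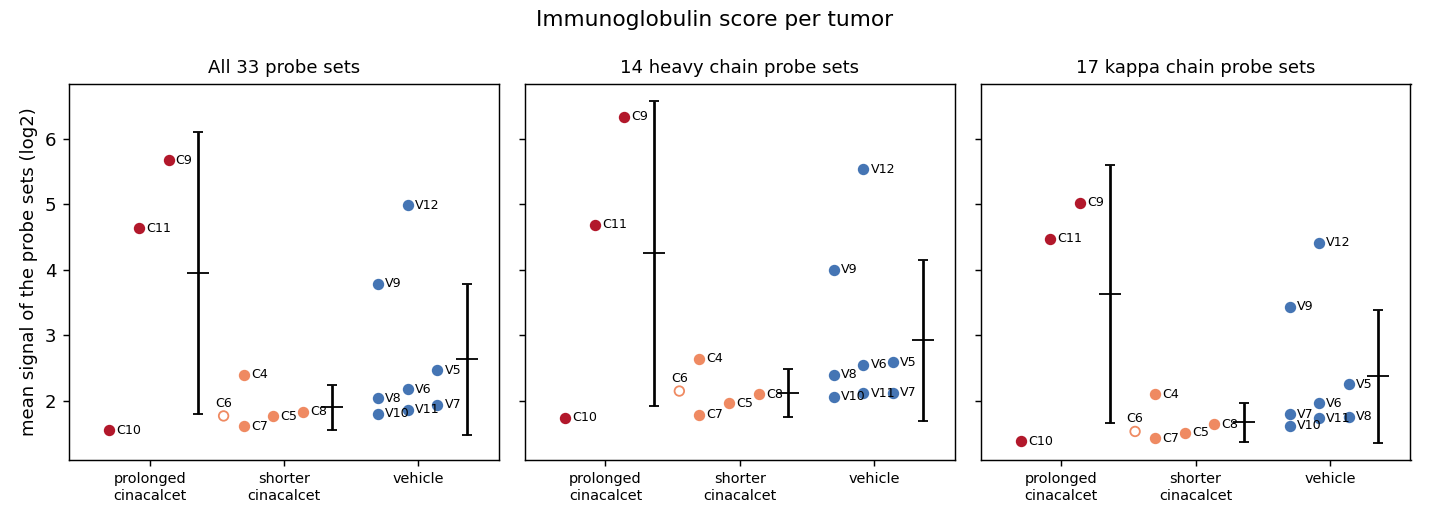
Mean log2 signal per tumor over all 33 immunoglobulin probe sets (left), 14 heavy chain probe sets (middle) and 17 kappa chain probe sets (right). Points are tumors, black bars the mean and SD of the group, and the open circle C6, which enters no group. C9, C11, V12 and V9 lie above 3 in every panel, and C10 lies lowest.

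To see how many probe sets carried signal, each array was compared with its own olfactory receptor probe sets, 1108 in number. These were taken as an approximate background, and whether each is silent in these tumors was not tested. The 95th percentile of these was exceeded by 26 of 33 immunoglobulin probe sets in C9, 9 in C10 and 22 in C11, against 25 in V12 and 21 in V9. In the other 11 tumors, including C6, between 8 and 11 did so. Averaged over all 16 tumors, 17 of the 33 lay above the 95th percentile of the olfactory receptor means (2.02), and the mean of the other 16 did not exceed it. Among the 15 grouped tumors, each of the 33 had its highest signal in C9 (16 probe sets), C11 (7), V12 (7) or V9 (3), and in 18 of 33 these were the top 4 of all 16 tumors. C6 exceeded that highest signal for the dim Igkv8-30 (2.75) and Igkv6-14 (0.92). The SD over the 15 grouped tumors had a median of 1.46 among the immunoglobulin probe sets and of 0.333 among all 40543, and 31 of 33 lay above the latter value. In bulk RNA, fewer cells of a type and less RNA per cell cannot be told apart.

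The 7 probe sets of Ighm, the constant region of IgM, had their peak in C9 (4 probe sets), V12 (2) or V9 (1). For 17284605 the signal was 8.98 in C9, 0.85 in C10 and 8.63 in C11. It was 3.27, 1.41, 2.03 and 1.81 in C4, C5, C7 and C8, and the vehicle tumors had a lowest value of 1.78, a median of 2.50 and a highest of 8.34, in V12. Prolonged and vehicle tumors overlapped, with C10 below every vehicle tumor, and the shorter tumors lay inside the vehicle range apart from C5. Ighm 17284360 reached 10.6 in C9 and 8.59 in V12, but only 5.40 in C11. Ighm 17284507 showed the same imbalance, with 8.25 in C9, 2.71 in C11 and 4.87 in V12. Ighm 17284349 had 8.67 in C9 and 7.07 in C11, against 9.07 in V9, its peak, and was well above background in all tumors, its lowest signal being 3.94 in C5. The remaining 3 were 17284503, 17284648 and 17284660. Of these, 17284503 had 4.48 in C9 and 4.55 in V12 but 1.35 in C11 and 1.07 in V9. Ighm 17284648 had 6.49 in C9 and 3.69 in C11, against 4.25 in V12 and 1.30 in V9. Ighm 17284660 had 5.92 in C9 and 3.25 in C11, against 6.41 in V12 and 5.69 in V9. Probe sets under the one symbol Ighm thus followed different tumors. The annotation does not say whether each of them reads the constant region itself or a rearranged segment beside it.

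The pair of probe sets for Ighg3, of the IgG3 class, split between C9 and C11. Ighg3 17284344 had 6.91 in C9, 1.87 in C10 and 2.43 in C11. The shorter tumors lay between 1.61 and 2.66 and the vehicle tumors between 1.65 and 3.33, with a median of 2.25, so C9 alone stood out. Ighg3 17284614 gave 3.32 in C9, 0.92 in C10 and 8.73 in C11. The shorter tumors were between 0.49 and 1.18 and the vehicle tumors between 0.37 and 4.35, the highest being V12, with a median of 1.02. C11 led this probe set and C9 was below V12, unlike in the other probe set of the gene.

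Variable segments of the heavy chain bind antigen together with those of the light chain, and 3 were measured by a probe set of their own. Ighv1-53 was shared by the high tumors, at 4.96 in C9, 4.89 in C11, 4.62 in V12 and 4.36 in V9, and between 1.53 (C10) and 2.36 (V5) in the others. Ighv1-47 did not exceed 1.49 in cinacalcet tumors (C9) and was high in a single vehicle tumor, V12, at 5.08. Ighv1-54 stayed near background throughout, between -0.19 and 1.01.

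Among kappa segments, Igkv9-120 is the gene whose difference drew attention to the family, and its values are a description. It was 7.12 in C9, 0.47 in C10 and 8.91 in C11. The shorter tumors had 1.08, 0.71, 0.44 and 0.39 in C4, C5, C7 and C8, and the vehicle tumors a lowest value of 0.41, a median of 1.03 and highest values of 4.54 (V9) and 4.86 (V12). Both C9 and C11 lay above every vehicle tumor, while C10 lay beside the lowest of them. Igkv4-72 and Igkv4-70 had the same leader, with 7.41 and 6.11 in C11, and in C9 they had 5.29 and 5.23. V12 was close to C9 for Igkv4-72, at 5.40, and below both C9 and C11 for Igkv4-70, at 4.28. Igkv4-59 was high only in the prolonged tumors C9 (4.81) and C11 (3.54), C10 being at 0.75, and the vehicle tumors did not exceed 1.43.

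Other kappa segments belonged to one tumor or to a different set. Igkv4-91 reached 7.95 in C9 and 4.23 in V12 but 1.87 in C11, inside the range of the remaining tumors. Igkv6-23 had 3.54 in C9 and 1.42 in C11, and no vehicle tumor exceeded 1.17. Igkv9-124 had 4.20 in C9 and Igkv1-133 2.88, and both were higher in V12, at 5.02 and 4.21. Igkv5-43 17459421, the kappa probe set of a single symbol with the strongest mean signal, had 10.96 in C11, 10.84 in C9, 10.54 in V12 and 9.53 in V9, and it was above background in every tumor, the lowest value being 4.28 in C10. The other pair of probe sets for Igkv5-43 peaked in V9, at 2.86 and 1.86, and were otherwise low. Igkv15-103 spread over a narrow range, between 1.97 (V8) and 4.63 (V12). Igkv8-30, between 1.08 and 2.75 with C6 highest, Igkv8-19 and Igkv6-14 varied little. Iglv1, the one lambda segment, was 3.07 in C9, 2.65 in C11, 2.90 in V9 and 1.98 in V12, and no other tumor exceeded 1.56. V9 thus ranked above V12 for lambda, whereas V12 ranked above V9 for the mean of the kappa probe sets.

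**Figure D2:**
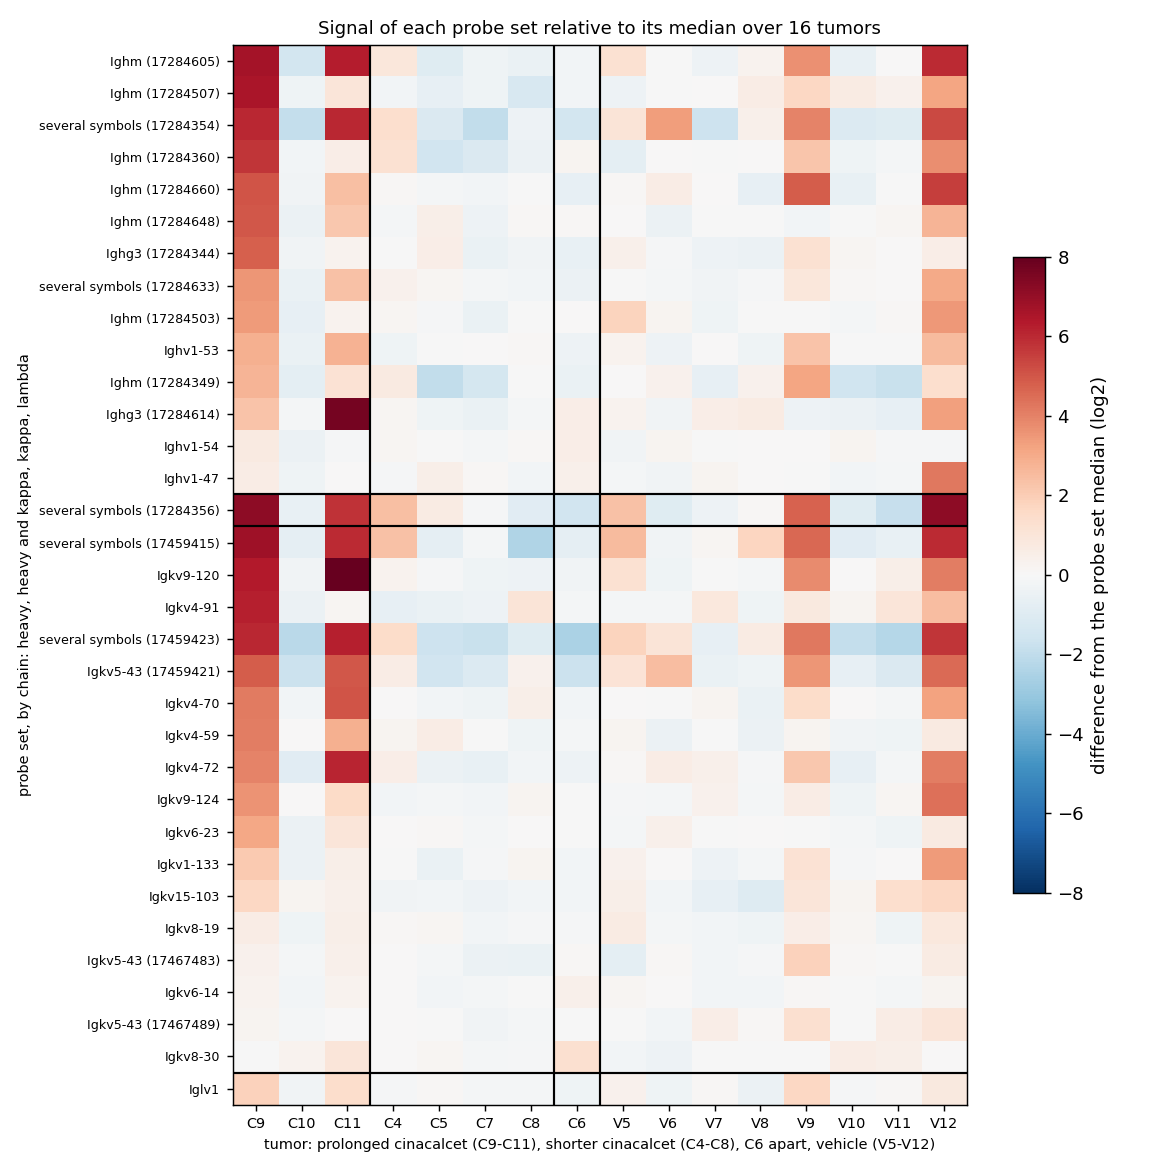
Difference of each of 33 probe sets from its own median over 16 tumors (log2, colour scale), with tumors in columns by group and probe sets in rows by chain. C9, C11, V12 and V9 form red columns, but single rows are red in different ones of them: Ighv1-47 in V12, Ighg3 17284344 in C9 and Ighg3 17284614 in C11.

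Since the 5 probe sets that list several symbols can bind transcripts of many rearranged genes, they were described apart. Probe set 17459415 had 12.03 in C9, 4.53 in C10 and 11.21 in C11, between 2.84 and 7.64 in shorter tumors, and a lowest value of 4.38, a median of 6.20 and a highest of 11.24 in vehicle tumors. The tumors C9, V12, C11 and V9, the last at 9.87, all stood above the remaining ones. Likewise 17284354 had 11.32 in both C9 and C11, 10.58 in V12 and 9.25 in V9, with V6 at 8.60. In the 5 probe sets C9 and C11 were 0.01 (17284354) to 1.38 (17284356) apart, whereas Igkv4-91 was 6.08 higher in C9 than in C11. Across all 33, C9 exceeded C11 by more than 2 log2 units in 9 probe sets, C11 exceeded C9 by as much in 2 (Ighg3 17284614 and Igkv4-72), and 22 lay within 2 units of each other. Over the 33 probe sets, the deviations from each probe set's median were correlated between pairs of C9, C11, V12 and V9. Pearson r was lowest between C9 and C11 (0.57) and highest between C9 and V12 (0.72). The other pairs lay between 0.58 and 0.69. Spearman rho was 0.60 between C9 and C11, 0.68 between C9 and V12, and lowest between C11 and V9 (0.52). Probe sets of shared sequence are not independent, and these correlations are a description.

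**Figure D3:**
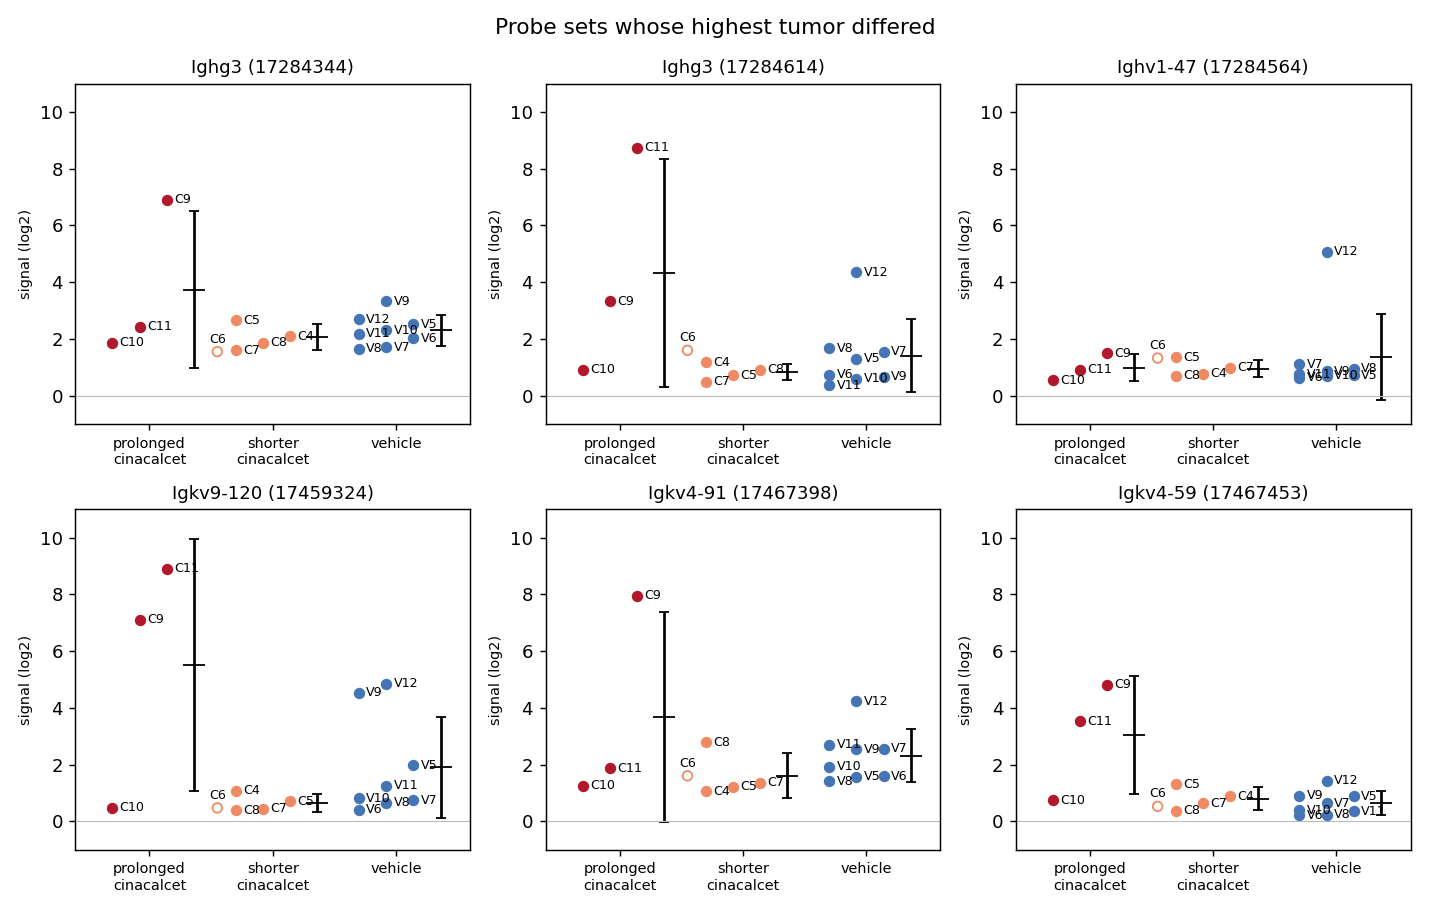
Log2 signal per tumor of 6 single-symbol probe sets, with group mean and SD in black and C6 as an open circle. C9 leads Ighg3 17284344, Igkv4-91 and Igkv4-59, C11 leads Ighg3 17284614 and Igkv9-120, and V12 leads Ighv1-47.

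Heavy and kappa probe sets were then compared as chain scores, which rise or fall together unless a tumor favors one chain on this array. The heavy score averaged 4.25 ± 2.32 (SD, n = 3) with prolonged cinacalcet, 2.13 ± 0.37 (SD, n = 4) with shorter cinacalcet and 2.92 ± 1.23 (SD, n = 8) with vehicle. For the kappa score these values were 3.63 ± 1.96 in prolonged cinacalcet, 1.68 ± 0.30 in shorter cinacalcet and 2.37 ± 1.01 in vehicle tumors. Different probes have different brightness, so only changes of the heavy minus kappa difference between tumors can be read. That difference was 1.31 in C9, 0.36 in C10 and 0.21 in C11, between 0.36 and 0.54 in shorter tumors, and between 0.33 and 1.13 in vehicle tumors with a median of 0.50. C9 and V12 stood above the rest and C11 had the lowest value of all, although its score as a whole was close to that of V12. The groups differed less than their spread, by 0.08 for prolonged cinacalcet minus vehicle and by -0.10 for shorter cinacalcet minus vehicle. Both signs depended on the probe sets used. With only the 17 above background the difference was -0.36 for prolonged and 0.35 for shorter cinacalcet, and with medians over probe sets the prolonged one was 0.48. These 17 were chosen by their mean over all 16 tumors, so a probe set could enter through the high tumors. Igkv9-120 did so, with a mean of 2.18 and a median of 0.78.

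The 4 tumors with shorter cinacalcet treatment were set against the 8 vehicle tumors. Most immunoglobulin probe sets had a lower mean in shorter cinacalcet tumors, but none passed the test. At an adjusted p under 0.05 from limma, over all 40543 probe sets, 0 of 33 were called (0% of all probe sets), and 0 of 33 had an unadjusted p under 0.05, against 2.03% of all probe sets higher and 1.64% lower. At an unadjusted p of 0.01 or less there was again 0 of 33, against 0.365% of all probe sets higher and 0.227% lower. The fitted log2 difference was below 0 for 31 of 33, with a median of -0.61, while 51.0% of all probe sets were below 0 and their median was -0.01. The smallest p belonged to Igkv5-43 17467489, with 0.57, 0.56, 0.31 and 0.42 in C4, C5, C7 and C8 and a lowest value of 0.38, a median of 0.87 and a highest of 1.86 in vehicle tumors. Its groups overlapped near background, with a log2 difference of -0.51 (95% interval -1.02 to 0.01, adjusted p = 1 from limma). Among single-symbol probe sets, the next by p were Ighm 17284507 at -1.39 (interval -3.41 to 0.63), Igkv15-103 at -0.61 (interval -1.54 to 0.31), and the other probe sets of Igkv5-43, 17467483 at -0.48 and 17459421 at -1.54 (interval -4.24 to 1.16). Probe set 17459415 of several symbols, at -1.87 (interval -5.07 to 1.33), ranked between the last pair. Only Igkv4-59, at 0.17, and Ighv1-54, at 0.02, lay above 0. The wide intervals, such as those of Ighm 17284507 and Igkv5-43 17459421, reach from several-fold lower to above 0, so the data bound those changes only loosely. Some dim probe sets of small spread had narrower intervals, such as Igkv6-14 at -0.08 (interval -0.35 to 0.20). The vehicle mean holds V9 and V12: without V12 the median was -0.32 with 27 of 33 below 0, and group medians put 26 of 33 lower in shorter tumors. No probe set of the 33 had all shorter tumors outside the vehicle range, as 0.15% of all probe sets did above it and 0.195% below it.

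**Figure D4:**
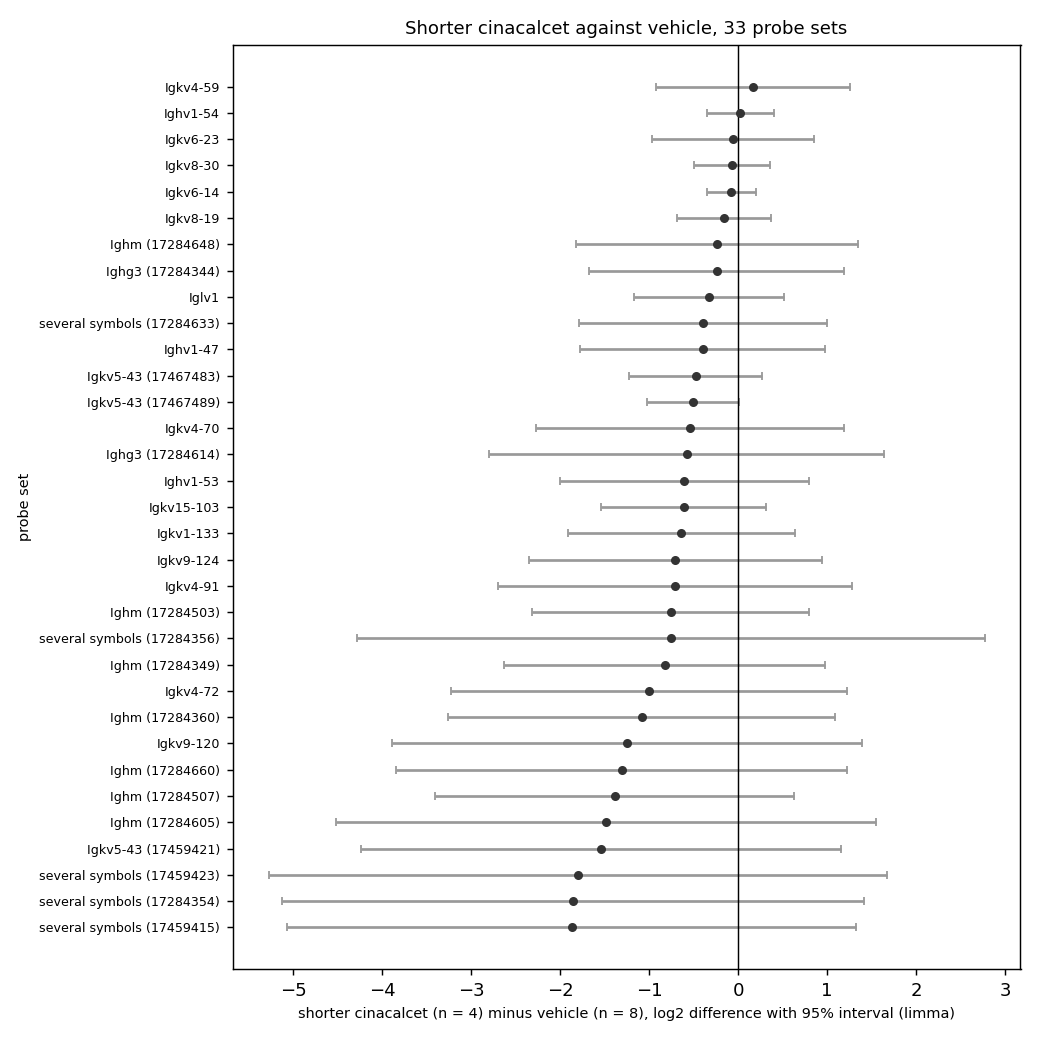
Log2 difference of shorter cinacalcet (n = 4) minus vehicle (n = 8) for 33 immunoglobulin probe sets, with 95% intervals from limma. The points lie below 0 for 31 of 33, and all intervals include 0.

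Prolonged cinacalcet against vehicle used the same vehicle tumors and is given as a description, because it is the contrast that brought these genes to attention. The fitted difference was above 0 for 31 of 33, with a median of 1.36, against 40.8% of all probe sets and a median of -0.06. Igkv9-120 had the largest, 3.60 (standard error 1.37), followed by Ighg3 17284614 at 2.92, probe set 17284356 of several symbols at 2.82, Ighm 17284605 at 2.54, Igkv4-70 at 2.47 and Igkv4-59 at 2.40. C9 lay above every vehicle tumor in 20 of 33 probe sets, C11 in 13 and both together in 10. How often C9 or C11 alone did so among all probe sets was not counted, so these numbers have no reference. C10 was the lowest of the prolonged tumors in 32 of 33 and lay below the vehicle median in 31 of 33. All prolonged tumors lay above all vehicle tumors in 0 of 33 (0.666% of all probe sets) and below them in 0 of 33 (1.39%). The median difference depended on each prolonged tumor. Without C10, the setting in which the family was picked, it was 2.49, without C11 0.84, and without C9 0.20, with 20 of 33 above 0.

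When all 7 cinacalcet tumors, prolonged and shorter, were set against the 8 vehicle tumors, the probe sets divided almost evenly. The prolonged tumors are part of this comparison, which is therefore not independent of how the family was picked. The fitted difference was above 0 for 18 and below 0 for 15, with a median of 0.03 (all probe sets -0.02). The immunoglobulin score averaged 2.78 ± 1.67 over the 7 cinacalcet tumors and 2.63 ± 1.15 over the 8 vehicle tumors (SD), a difference of 0.15. No probe set passed an adjusted p under 0.05 from limma (0% of all), and 1 of 33 had an unadjusted p under 0.05, the dim Igkv5-43 17467489, with a difference of -0.45 (95% interval -0.88 to -0.03, adjusted p = 0.909 from limma). At that unadjusted p 2.07% of all probe sets were higher and 3.03% lower, and at 0.01 or less, where 0 of 33 were found, 0.377% were higher and 0.511% lower. All cinacalcet tumors lay above all vehicle tumors in 0 of 33 (0.00987% of all probe sets) and below them in 0 of 33 (0.037%). The balance depended on single tumors, since without V12 31 of 33 were above 0 (median 0.43) and without C9 only 7 were (median -0.34).

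Markers of the cells that make antibodies were read beside these values, and their part in the result was not tested. Jchain, which joins IgM units into polymers, was 6.10 in C9, 1.02 in C10, 5.41 in C11, 5.81 in V12 and 4.06 in V9. C4 followed at 2.81, and the others lay between 0.80 (V10) and 2.06 (V5). Of all single-gene probe sets outside the 33 it was the one most like the immunoglobulin score, with Pearson r = 0.99 and Spearman rho = 0.88 over 15 tumors. Without the 4 high tumors, over the other 11, the r of Jchain was lower, at 0.81. The next 9 by r held a pair of probe sets for the heavy segment Igh-VS107 (0.94 each) and the kappa joining segment Igkj1 (0.91), antibody genes that the prefixes had missed. Mzb1 (0.88), a chaperone of antibody secreting cells, had 3.30 in C9, 2.90 in C11, 3.84 in V12 and 3.45 in V9, and at most 2.48 elsewhere. The others were Slpi, a protease inhibitor (0.91), Dock5, a regulator of the GTPase Rac (0.88), Tifab (0.88), Tnip1, an inhibitor of NF-kB signaling (0.88), and H2-M2, a class I histocompatibility gene (0.88). Over the other 11 tumors the r of these 9 probe sets lay between -0.06 (Igkj1) and 0.74 (Igh-VS107 17284314), with Mzb1 at -0.03, Dock5 at 0.12 and Slpi at 0.27. The plasma cell list held 14 symbols, Igj being an older name of Jchain, and 13 were measured and 8 were above background. Their mean was 3.50, 2.29 and 2.98 in C9, C10 and C11, between 2.19 and 2.68 in shorter tumors and between 2.13 and 3.13 in vehicle tumors, where V12 and V9 (2.95) were highest. The 8 above background did not all follow the score. Beside Jchain and Mzb1, the r over 15 tumors was 0.84 for Slamf7, 0.63 for Xbp1 and 0.53 for Sdc1. It was 0.37 for Prdm1, 0.19 for Derl3 and -0.06 for Fkbp11. Tnfrsf17, a defining receptor of plasma cells, stayed near background in all tumors, at most 1.28.

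The 4 tumors differed in B cell markers. Ms4a1, the surface protein CD20, was 3.15 in C9, 1.01 in C10, 1.55 in C11, 2.16 in V12 and 5.84 in V9, and at most 1.63 elsewhere. Cd79a, a subunit of the B cell receptor, was 3.90 in C9 and 3.41 in C11, against 5.62 in V9 and 2.52 in V12. Cr2, the complement receptor of mature B cells, was at most 2.43 in cinacalcet tumors (C9) and reached 4.34 in V9. The B cell list held 15 symbols, Faim3 being an older name of Fcmr, with 13 measured and 5 above background. It averaged between 1.74 and 2.75 in prolonged tumors, between 1.79 and 1.90 in shorter tumors, and between 1.75 and 3.92 in vehicle tumors. V9 was the highest tumor of this list and only the fourth by immunoglobulin score. Glycam1, a product of the high endothelial venules by which lymphocytes enter lymph nodes, was 7.00 in V9 and between 1.55 and 2.37 in all other tumors. Madcam1 and Chst4, listed with it, were not raised in V9, at 1.76 and 1.44, and were highest in V10, at 2.61 and 2.06. Neither was above background on average. Cxcl13, which attracts B cells to follicles, was 10.11 in C9, 7.58 in C10 and 8.40 in C11, against 9.18 in V12 and 8.69 in V9, and C10 had it without a high immunoglobulin score. T cell genes (8 of 8 measured, 6 above background) averaged 3.72 in C9, 3.19 in C4 and 3.04 in C11, and at most 2.61 elsewhere. The macrophage list held 10 symbols, Emr1 being an older name of Adgre1, with 9 measured and all 9 above background. It averaged 7.04 in C9, the highest of all 16 tumors, 5.96 in C10 and 5.95 in C11. Its mean lay between 4.80 and 6.63 in shorter tumors, and between 3.86 and 6.60 (V12) in vehicle tumors. Over 15 tumors this list had r = 0.57 with the immunoglobulin score, and Cd14 (0.74) and Itgam (0.73) had the highest r of its genes. Immunoglobulin receptors (r = 0.58, 6 of 7 above background) and neutrophil genes (r = 0.59, 2 of 8 above background) were similar. The r of the plasma cell list was higher, at 0.95, and that of the T cell list was 0.79. It was 0.67 for the list that holds Glycam1 and Cxcl13 and 0.56 for the B cell list. The r was 0.20 for fibroblast, 0.01 for endothelial and -0.31 for mural genes.

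**Figure D5:**
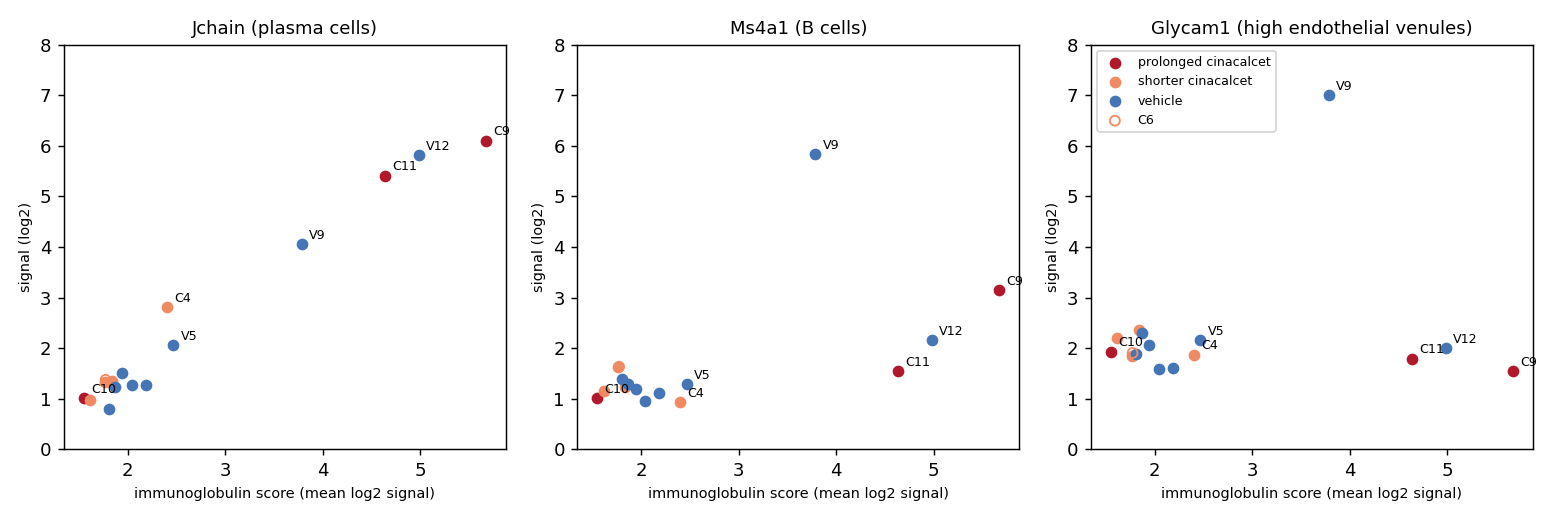
Log2 signal of Jchain, Ms4a1 and Glycam1 against the immunoglobulin score (mean log2 signal of 33 probe sets) in 16 tumors, coloured by group. Jchain follows the score through C9, C11, V12 and V9, whereas Ms4a1 and Glycam1 are highest in V9, at 5.84 and 7.00.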

How the data were processed

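Total RNA of 16 xenografts was hybridized to 1 Mouse Gene 2.1 ST array each. The authors deposited log2 signals, background-corrected, quantile-normalized and summarised by RMA (Robust Multi-array Average), and their processing notes also list R 3.2 and limma 3.24. RMA makes array distributions alike, and precision is limited by how many arrays there are. A genome build is not given in the sources used here, so no coordinates are printed, and chromosomes come from the RefSeq gene table, in which 24 of 24 gene identifiers matched. Of 40543 probe sets, 23448 list 1 symbol, 1619 several and 15476 none.

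Members, lists and named genes were chosen with earlier results of these data known. The rule named single-symbol constant probe sets, the 8 brightest and 8 most variable variable-segment probe sets, those of smallest p or largest difference, the 10 genes most like the score and the marker lists. Differences were fitted with limma 3.58.1 in R 4.3.3 on all probe sets with Benjamini-Hochberg adjustment and no filter, without C6, with prolonged, shorter and vehicle tumors in 1 fit and with all cinacalcet tumors in another. The code was tested on simulated data. P-values measure the spread between tumors, 1 per mouse. The study's filter (lower 50% by signal, then lower 50% by SD), which 20 of 33 members and 10135 of 40543 probe sets passed, C6, trended variances, a host covariate, quantile normalization, other score definitions, a replicate block and leaving out each tumor were the alternatives. A list of antibody rearrangement genes is not reported here.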

Additional observations from a re-analysis of the deposited data

Results flagged for a closer look

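Each group of 4 or more tumors was checked for a highest or lowest tumor far from the others, by Dixon's ratio at its 95% critical value. Of 111 checks, over 33 probe sets and 4 scores in all cinacalcet, shorter cinacalcet and vehicle tumors, 20 met it, where chance gives about 1 in 20 groups (5%). The probe sets overlap in sequence and the cinacalcet tumors include the shorter ones, so the checks are not independent. The family was picked from a high signal in C9 and C11, so the 20 cannot be judged against the chance rate.

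Within the cinacalcet arm C9 stood apart 9 times. It did so for Ighg3 17284344 (6.91), for Ighm 17284360 (10.6), 17284503 (4.48) and 17284507 (8.25), and for the kappa segments Igkv1-133 (2.88), Igkv15-103 (4.62), Igkv4-91 (7.95) and Igkv6-23 (3.54). The heavy minus kappa score of C9, 1.31, was also far from the rest. C11 stood apart for Ighg3 17284614 (8.73) and Igkv8-30 (2.44). Among shorter tumors, C8 did so for Igkv4-91 (2.79).

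Within the vehicle arm V12 stood apart 8 times, for Ighv1-47 (5.08), Ighg3 17284614 (4.35), Ighm 17284648 (4.25), probe set 17284633 of several symbols (5.69), Igkv1-133 (4.21), Igkv9-124 (5.02) and Igkv4-91 (4.23), and for its heavy minus kappa score (1.13). V9 met none of these checks.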

How the results depend on the processing

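The count of immunoglobulin probe sets past an adjusted p under 0.05 from limma stayed at 0 in each comparison with C6 included, the study's filter, trended variances, the host covariate, quantile normalization and the replicate block. Leaving out each tumor in turn gave 0 to 0 for all cinacalcet and for shorter cinacalcet, and 0 to 1 for prolonged cinacalcet, the 1 being Igkv4-59 (3.54) without C10, the setting in which the family was picked. Without C10, 14 of all 40543 probe sets passed for prolonged cinacalcet. With all 15 grouped tumors, at an unadjusted p under 0.05, all cinacalcet had 1 and prolonged cinacalcet 6. Among all 40543 probe sets these numbers were 2070 and 2893. At 0.01 or less prolonged cinacalcet had 1, against 607 of all probe sets. Without V12 it had 7, against 681, and without C10 it had 15, against 591. The counts of prolonged cinacalcet test nothing, since values of that comparison chose the family. The score difference from vehicle ranged, without each tumor in turn, from -0.33 to 0.48 for all cinacalcet, from -0.90 to -0.39 for shorter and from 0.46 to 2.52 for prolonged cinacalcet. For heavy minus kappa, the prolonged difference was 0.48 with medians over probe sets. With the probe sets above background, chosen by a mean that includes the high tumors, it was -0.36 and the shorter one 0.35. The cause was not tested. Ighv1-54, near background, ranged from -0.016 to 0.075 in shorter cinacalcet when each tumor was left out, turning below 0 without V5, C4 or C8.

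With the tumor number as a replicate block, 0 passed in each comparison. The numbers under an unadjusted p of 0.05 were 2 for all and 0 for shorter cinacalcet, against 2803 and 1808 of all 40543 probe sets. For prolonged cinacalcet, where the count is a description only, it was 15, against 3532 of all probe sets. Under the block Igkv15-103 turned to 0.12 in shorter cinacalcet, and 12 of 33 lay above 0 there. The numbers do not pair the tumors, since the deviations of 6 same-numbered pairs correlated between -0.203 and 0.324 and only 2 exceeded 0.1. Sign was kept under every alternative by 6 of 33 probe sets for all, 20 for shorter and 21 for prolonged cinacalcet. With 3 and 4 tumors in the cinacalcet groups, small differences could not be resolved, and probe sets near background carry little information.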
